A study of Rattus norvegicus with 6 samples.

Results

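Aminoacyl-tRNA synthetases were taken as every gene of the deposited count table whose description contains "tRNA synthetase" or "tRNA ligase", with the counts of a gene's rows added together. The rule found 45 genes among the 21553 named genes of the table. Of these, 21 were cytosolic enzymes or subunits, 17 were mitochondrial enzymes, 4 were accessory proteins whose description mentions a synthetase, and 3 were copies that carry only a LOC number. A symbol ending in 2 marked a mitochondrial enzyme, except Aimp2, which is a scaffold protein, and Tarsl2, a threonyl-tRNA synthetase-like enzyme counted here as cytosolic. RNA was sequenced from INS-1, an insulin-secreting rat insulinoma cell line, in 2 groups of 3 libraries. INS-SMA cells received the α-SMA (alpha smooth muscle actin) gene by lentivirus and have the genotype SMA overexpression. INS-MOCK cells have the genotype wild type, and the labels do not say whether they received a lentivirus. All cells were at passage 7 to 15 in RPMI medium with fetal bovine serum, and the labels do not say how many clones or transductions stand behind a group.

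An aminoacyl-tRNA synthetase joins an amino acid to its tRNA, using ATP, and so sets which amino acid a codon is read as. Most amino acids have a cytosolic enzyme and a separate mitochondrial enzyme, both encoded in the nucleus, while Kars and Gars each serve both compartments. Several cytosolic enzymes sit in the multi-tRNA synthetase complex with the scaffolds Aimp1, Aimp2 and Eef1e1. When charged tRNA runs short or the endoplasmic reticulum is stressed, phosphorylation of eIF2 raises translation of the transcription factor ATF4, which is known to drive many cytosolic synthetase genes together with amino acid transport and synthesis. Beta cells make large amounts of secreted protein, so charged tRNA is in constant use there.

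In INS-SMA, 13 of the 21 cytosolic enzymes rose and 2 fell, where 28.1% of all tested genes rose and 27.0% fell. The 16 tested mitochondrial enzymes divided into 4 that rose, 3 that fell and 9 that did not pass. Cars, which charges cysteine tRNA, rose 5.60-fold, Iars, for isoleucine, 3.47-fold, and Aars, for alanine, 2.68-fold. The methionine enzymes passed in opposite directions, with cytosolic Mars higher and mitochondrial Mars2 lower. The histidine enzymes were turned the other way, with cytosolic Hars lower and mitochondrial Hars2 higher. These enzymes are described below by class, after the promoter sequences of those that the results turn on.

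The promoters of 6 cytosolic enzymes that rose are shown because each holds the letters TGATGNAA, where N is any base, on one strand or the other. This is the core of the C/EBP-ATF response element, which ATF4 and C/EBP partners are known to bind. Each window runs 250 bases before to 50 bases after the RefSeq gene start on build GRCr8, is written 5′ to 3′ on the gene's strand, and has the matching bases in capitals. A match on the opposite strand is shown as its reverse complement. The windows lie at chr19:55908232-55908531 on the plus strand for Aars, chr1:208225320-208225619 on the minus strand for Cars, chr17:15193603-15193902 on the minus strand for Iars, chr7:65023704-65024003 on the minus strand for Mars, chr18:60275733-60276032 on the minus strand for Nars, and chr5:146819913-146820212 on the plus strand for Yars.
Aars: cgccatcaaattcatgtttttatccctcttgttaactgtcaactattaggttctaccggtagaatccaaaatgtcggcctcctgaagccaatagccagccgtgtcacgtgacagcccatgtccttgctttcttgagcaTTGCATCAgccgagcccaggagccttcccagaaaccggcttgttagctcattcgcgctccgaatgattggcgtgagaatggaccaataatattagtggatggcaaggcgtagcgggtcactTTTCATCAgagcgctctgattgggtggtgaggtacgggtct
Cars: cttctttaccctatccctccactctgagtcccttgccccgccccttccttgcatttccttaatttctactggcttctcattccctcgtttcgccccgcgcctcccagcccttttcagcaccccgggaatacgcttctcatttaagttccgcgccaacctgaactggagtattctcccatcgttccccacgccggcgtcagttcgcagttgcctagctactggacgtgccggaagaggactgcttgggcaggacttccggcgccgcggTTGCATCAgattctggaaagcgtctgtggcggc
Iars: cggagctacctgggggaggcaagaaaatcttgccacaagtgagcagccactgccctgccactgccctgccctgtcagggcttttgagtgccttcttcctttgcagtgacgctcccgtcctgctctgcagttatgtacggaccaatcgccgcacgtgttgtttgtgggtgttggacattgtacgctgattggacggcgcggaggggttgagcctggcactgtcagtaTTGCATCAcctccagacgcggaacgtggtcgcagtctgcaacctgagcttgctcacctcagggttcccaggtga
Mars: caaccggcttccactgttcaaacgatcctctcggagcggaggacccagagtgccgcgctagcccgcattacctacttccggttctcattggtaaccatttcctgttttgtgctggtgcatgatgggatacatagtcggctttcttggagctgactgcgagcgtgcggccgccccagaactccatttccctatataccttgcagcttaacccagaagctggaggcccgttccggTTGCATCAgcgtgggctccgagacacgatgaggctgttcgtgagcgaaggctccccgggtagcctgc
Nars: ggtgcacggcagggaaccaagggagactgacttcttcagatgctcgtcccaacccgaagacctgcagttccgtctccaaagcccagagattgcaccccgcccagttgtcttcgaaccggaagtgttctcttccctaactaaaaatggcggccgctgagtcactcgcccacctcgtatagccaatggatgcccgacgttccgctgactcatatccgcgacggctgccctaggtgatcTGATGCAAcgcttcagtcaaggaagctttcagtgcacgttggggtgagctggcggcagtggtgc
Yars: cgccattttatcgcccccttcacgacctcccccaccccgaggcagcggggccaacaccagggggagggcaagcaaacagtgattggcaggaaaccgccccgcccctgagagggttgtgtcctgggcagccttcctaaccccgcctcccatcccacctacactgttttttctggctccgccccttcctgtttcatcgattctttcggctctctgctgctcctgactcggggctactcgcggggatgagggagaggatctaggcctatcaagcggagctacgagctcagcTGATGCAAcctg

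Counted from the RefSeq start, the match began at base 17 in Cars, at -24 in Iars, at -17 in Mars, at -14 in Nars and at 38 in Yars. Aars had 2 matches, at -112 and at 9. RefSeq promoters were matched for 38 of the 45 genes, and Dars, Gars, Rars, LOC100911132 and LOC103690033 were among those with none in the table. The window that RefSeq names Mars2 has the gene number of LOC100911305 and was matched to that copy, so the deposited Mars2 gene has no window of its own here. TGATGNAA was present in 7 of the 38 windows and in 1332 of all 33469 rat windows of the same length, or 3.98%. All 7 were cytosolic enzymes, namely the 6 printed and Tars at -27, against 0 of 15 mitochondrial windows. Each of the 7 windows also held the exact letters TGATGCAA, which were found in 266 of the 33469 windows, or 0.795%. That letter was looked at after the matches were seen. Of the 7 cytosolic enzymes with a match, 6 rose and 1, Tars, did not pass, with a median log2 fold change of 0.87 and a range of 0.03 to 2.48. Of the 11 cytosolic windows without it, 6 belonged to enzymes that rose, 1 to Hars, which fell, and 4 to enzymes that did not pass. Their median was 0.25, with a range of -0.63 to 0.69. Beside these counts, 61.9% of the 21 cytosolic members rose, and of all tested genes 28.1% rose and 27.0% fell. Whether a match goes with a rise was not tested. The core of the interferon-stimulated response element, on either strand, was present in 1 of the 38 windows, the one matched to LOC100911305 that RefSeq names Mars2, at -26, and in 1312 of all windows, or 3.92%. A match is a stretch of letters and was not tested for binding.

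The histidine genes are shown for their position. Hars (chromosome 18, 29611547 to 29629087, minus strand) and Hars2 (chromosome 18, 29629184 to 29638721, plus strand) stand head to head in the deposited coordinates with 96 bases between them. On GRCr8 the promoter window of Hars is chr18:28672663-28672962 on the minus strand and that of Hars2 is chr18:28672606-28672905 on the plus strand, so the windows share 243 bases. The Hars2 window holds neither motif and is printed without capitals.
Hars2: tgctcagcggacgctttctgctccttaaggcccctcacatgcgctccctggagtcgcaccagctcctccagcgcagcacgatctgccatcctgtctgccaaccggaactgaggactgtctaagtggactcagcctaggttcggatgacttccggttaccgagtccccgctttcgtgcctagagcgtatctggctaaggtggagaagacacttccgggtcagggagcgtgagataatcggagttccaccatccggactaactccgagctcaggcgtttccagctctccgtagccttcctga

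Library totals were 24719503 to 39608609 counts, and the 13363 tested genes took 15851326 to 25075476 of them. Levels are given as CPM, counts scaled to a common library size, on which 3 counts are 0.117 to 0.180 CPM. The overexpressed sequence, listed as human ACTA2, had 941093, 1141322 and 1139159 counts in INS-SMA libraries, against 135, 103 and 167 in INS-MOCK libraries. Rows with no gene name took 35.8% to 36.7% of the counts in INS-SMA libraries and 32.7% to 33.0% in INS-MOCK libraries. Reads of a known gene can therefore be missing from its value, and a low value is not proof of low expression. All 13 listed beta cell markers were present. The summed level of those markers was 4075 to 5319 CPM in INS-SMA and 39463 to 42507 CPM in INS-MOCK, with 10 of 13 lower and 0 higher. Of 8 fibroblast and stellate markers 7 were named and 3 tested, with 1 higher and 2 lower, at 19.7 to 33.3 CPM in INS-SMA and 60.4 to 86.5 CPM in INS-MOCK. The endothelial, immune and acinar or duct markers that were named summed, list by list, to at most 2.16 CPM in any library. Of them only the immune marker Ptprc passed, at 1.86, 1.56 and 1.13 CPM in INS-SMA and 0 in each INS-MOCK library, and the acinar marker Prss1 was at most 0.184 CPM in INS-SMA and 0 in INS-MOCK. The part of these shifts in the synthetase values was not tested. In RNA from whole cultures, fewer cells of a type and less RNA per cell cannot be told apart. The series calls the libraries of a group biological replicates without saying what was separate about them. A p-value here sets the group difference against the spread between libraries of the same group. Whether that spread covers separate transductions or clones is not known.

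Counts of each gene were compared with edgeR's quasi-likelihood test, fitted on all 13363 tested genes, and a gene was called at a Benjamini-Hochberg adjusted p under 0.05. Of the 45 synthetase genes 43 were tested. They include 26 that passed, where 55.1% of all tested genes passed. Of the 43, 18 rose, or 41.9%, where 28.1% of all tested genes rose, and 8 fell, or 18.6%, where 27.0% of all tested genes fell. The median log2 fold change (INS-SMA over INS-MOCK) was 0.11 for the 43 and 0.03 for all tested genes. Groups did not overlap for 27 of the 43, 18 higher and 9 lower in INS-SMA, beside 65.3% of all tested genes that did not overlap, 33.5% higher and 31.9% lower. A called difference of at least 2-fold was found for 4 that rose, beside 15.6% of all tested genes, and 4 that fell, beside 12.5%. All these counts include the copies LOC103690033 and LOC100911305, which are not independent of Iars and Mars2. Yars2 and LOC100911132 were below the count filter. With more than 1 gene in 4 called in each direction, the calls of single members are read by their size and by the values in each library.

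**Figure D1:**
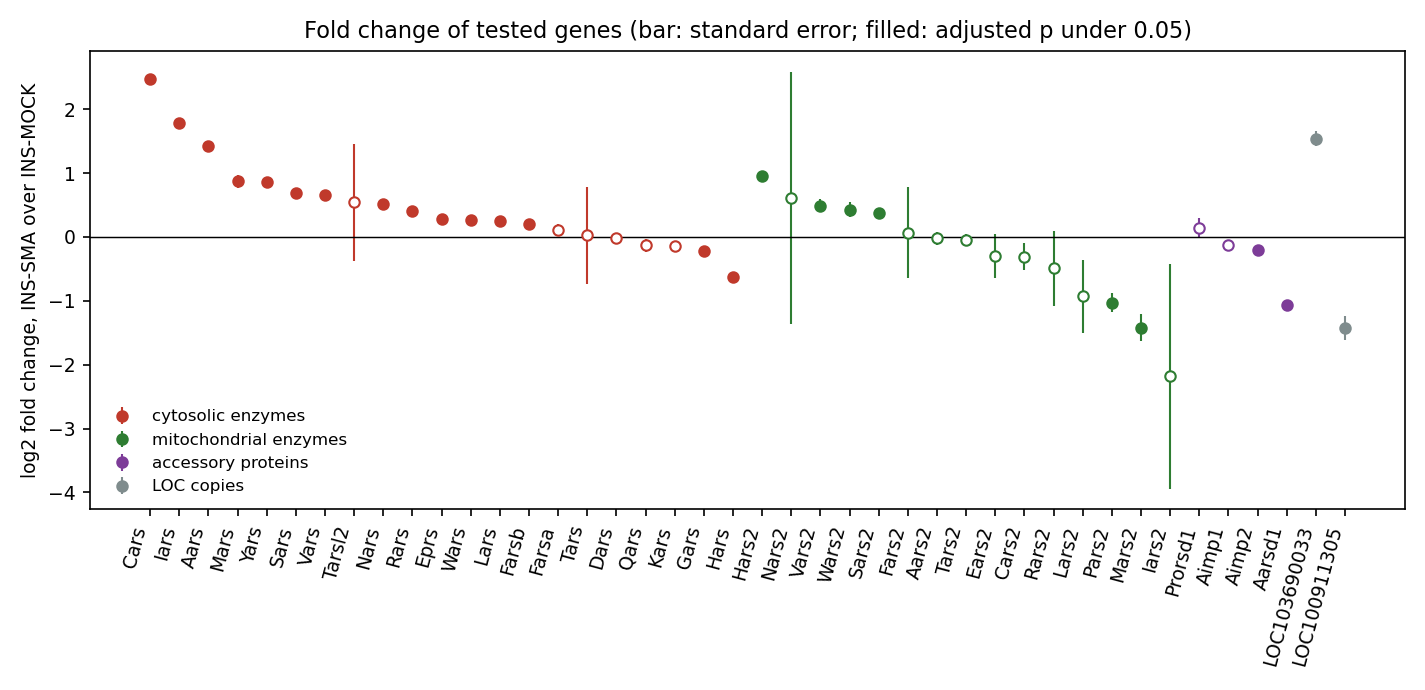
The log2 fold change of INS-SMA over INS-MOCK (vertical axis) is drawn for the tested genes reported here, with bars for the standard error and filled points for an edgeR adjusted p under 0.05. Cytosolic Cars stands highest at 2.48, and the points with the longest bars, such as Iars2 and Nars2, are open.

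Among the cytosolic enzymes 13 of 21 rose, or 61.9%, and 2 fell, or 9.52%, beside 28.1% and 27.0% of all tested genes. The median log2 fold change was 0.28 with a range of -0.63 to 2.48. The 13 that rose were Cars, Iars, Aars, Mars, Yars, Sars, Vars, Nars, Rars, Eprs, Wars, Lars and Farsb, and in each of them every INS-SMA library lay above every INS-MOCK library. Added over the class, the cytosolic enzymes had 9417, 9924 and 9901 CPM in INS-SMA libraries, against 6665, 6849 and 6943 CPM in INS-MOCK libraries. The means were 9747 ± 286 CPM in INS-SMA and 6819 ± 142 CPM in INS-MOCK (SD, n = 3 each). The class sum was higher in each INS-SMA library than in any INS-MOCK library.

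Cars, the cysteinyl enzyme (chromosome 1, 216759366 to 216801656, minus strand), changed most. Its level was 393, 417 and 389.9 CPM in INS-SMA libraries, against 67.4, 75.8 and 71.2 CPM in INS-MOCK libraries. The groups lay far apart, and the fitted log2 fold change was 2.48 (standard error 0.06 and adjusted p = 4.88e-06 in edgeR). Iars, the isoleucyl enzyme (chromosome 17, 15355529 to 15402649, minus strand), had 558, 565 and 563 CPM in INS-SMA libraries, against 156, 162 and 168 CPM in INS-MOCK libraries. Within each group Iars was nearly level, and its log2 fold change was 1.79 (standard error 0.04 and adjusted p = 4.23e-06 in edgeR). Aars, the alanyl enzyme (chromosome 19, 43193257 to 43215281, minus strand), had 720.4, 754 and 760.5 CPM in INS-SMA libraries, against 278, 274 and 283 CPM in INS-MOCK libraries. All 3 INS-SMA libraries stood well above INS-MOCK, with a log2 fold change of 1.42 (standard error 0.03 and adjusted p = 5.04e-06 in edgeR).

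Mars, the methionyl enzyme that charges initiator tRNA as well as elongator tRNA (chromosome 7, 70585013 to 70602310, minus strand), had 563, 584 and 602 CPM in INS-SMA libraries, against 271, 355 and 330.0 CPM in INS-MOCK libraries. The INS-MOCK libraries spread more than the INS-SMA libraries and still lay below all of them, and the log2 fold change was 0.87 (standard error 0.10 and adjusted p = 0.000976 in edgeR). Yars, the tyrosyl enzyme (chromosome 5, 147375350 to 147403571, plus strand), had 767, 763 and 812 CPM in INS-SMA libraries, against 417, 431 and 442 CPM in INS-MOCK libraries. Its log2 fold change was 0.86 (standard error 0.04 and adjusted p = 2.78e-05 in edgeR), close to that of Mars. Vars, the valyl enzyme (chromosome 20, 4993560 to 5008262, plus strand), had 898, 880.0 and 927 CPM in INS-SMA libraries, against 577, 569 and 563 CPM in INS-MOCK libraries. Vars was higher in all 3 INS-SMA libraries, by 0.66 on the log2 scale (standard error 0.03 and adjusted p = 2.94e-05 in edgeR).

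The other rises were smaller. Sars, the seryl enzyme, whose product also charges the selenocysteine tRNA with serine, averaged 703 ± 25.2 CPM in INS-SMA and 436 ± 12.7 CPM in INS-MOCK (SD, n = 3 each), with a log2 fold change of 0.69. Nars, for asparagine, averaged 612 ± 24.5 CPM in INS-SMA and 427 ± 13.6 CPM in INS-MOCK, with a log2 fold change of 0.52. Eprs, a fused enzyme for glutamate and proline (chromosome 13, 103300932 to 103371577, plus strand), had 1560.5, 1664 and 1646 CPM in INS-SMA libraries, against 1313, 1375 and 1315 CPM in INS-MOCK libraries. Its rise of 0.28 on the log2 scale (standard error 0.04 and adjusted p = 0.00165 in edgeR) was small, and it held the most counts of all members in either group. Rars, for arginine, rose by 0.41, Wars, for tryptophan, by 0.26, Lars, for leucine, by 0.25, and Farsb, the beta subunit of the phenylalanyl enzyme, by 0.20 on the log2 scale, with edgeR adjusted p-values of 0.00146 to 0.0067.

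Hars and Gars fell. Hars, the histidyl enzyme, had 90.5, 96.4 and 95.7 CPM in INS-SMA libraries, against 147, 144 and 148 CPM in INS-MOCK libraries. The groups were narrow and well apart, and the log2 fold change was -0.63 (standard error 0.04 and adjusted p = 7.08e-05 in edgeR). Gars, the glycyl enzyme of both compartments (chromosome 4, 85235172 to 85276044, plus strand), had 729.6, 766 and 744 CPM in INS-SMA libraries, against 879.7, 881 and 849.7 CPM in INS-MOCK libraries. Every INS-SMA library lay below every INS-MOCK library for Gars, by a smaller margin, with a log2 fold change of -0.22 (standard error 0.03 and adjusted p = 0.00231 in edgeR).

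The 6 cytosolic members that did not pass were Farsa, Tars, Tarsl2, Dars, Qars and Kars. Kars, the lysyl enzyme of both compartments, averaged 97.8 ± 8.62 CPM in INS-SMA and 107 ± 4.04 CPM in INS-MOCK (SD, n = 3 each). Dars, for aspartate, averaged 301 ± 13.8 CPM in INS-SMA and 306 ± 9.70 CPM in INS-MOCK. Tars, for threonine, had 61.3, 193 and 103 CPM in INS-SMA libraries, against 76.0, 38.7 and 236 CPM in INS-MOCK libraries. The libraries of one group differed several fold for Tars, so the standard error of its log2 fold change of 0.03 was 0.76. Farsa, the alpha subunit of the phenylalanyl enzyme, had a log2 fold change of 0.11, and Qars, for glutamine, -0.13. Tarsl2 had 0.54 with a standard error of 0.91, and 0.02 without INS-MOCK library 1 and 1.68 without INS-MOCK library 3.

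**Figure D2:**
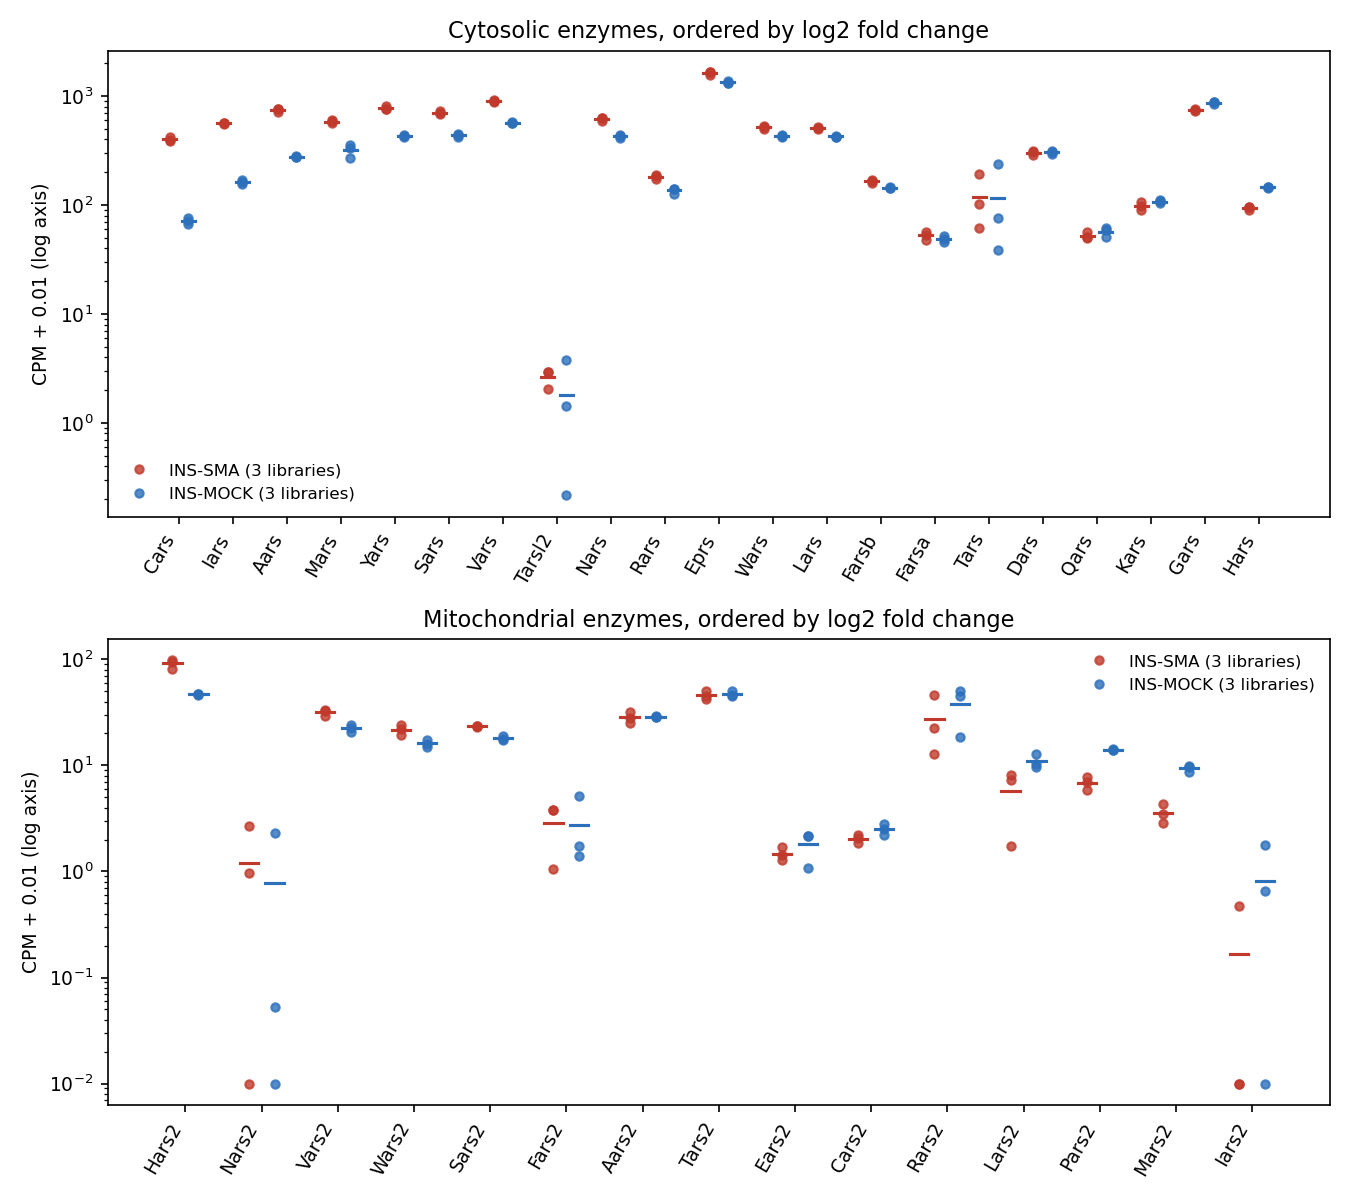
The levels of the tested cytosolic and mitochondrial members reported here are drawn on a log axis of CPM plus 0.01 for the 3 INS-SMA and the 3 INS-MOCK libraries, with genes ordered by log2 fold change. The groups separate for Cars, Iars and Aars at one end and for Hars at the other, and Tars, Rars2 and Nars2 scatter within both groups.

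The cytosolic enzymes were also grouped by structure, a grouping chosen after their values were seen. Of the 9 class I enzymes, which bind ATP in a Rossmann fold, 8 rose and 0 fell, with Qars not passing, and the median log2 fold change was 0.66. Of the 11 class II enzymes and subunits, 4 rose, 2 fell and 5 did not pass, with a median of 0.11. Eprs has a part of each class. The 8 enzymes that sit in the multi-tRNA synthetase complex had 5 that rose and 0 that fell, with a median of 0.27. The 13 outside it had 8 that rose and 2 that fell, with a median of 0.52. Beside these counts stand the 28.1% of all tested genes that rose and the 27.0% that fell.

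Among the mitochondrial enzymes 16 of 17 were tested, and 4 rose, or 25%, and 3 fell, or 18.8%. These shares stand beside 28.1% of all tested genes that rose and 27.0% that fell. The median log2 fold change was -0.17, with a range of -2.18 to 0.96. Added over the class, they had 286, 321 and 296 CPM in INS-SMA libraries, against 278, 249.6 and 286 CPM in INS-MOCK libraries. The means were 301 ± 18.0 CPM in INS-SMA and 271 ± 19.0 CPM in INS-MOCK (SD, n = 3 each). The lowest INS-SMA sum and the highest INS-MOCK sum lay next to each other. Hars2 alone averaged 91.4 CPM in INS-SMA and 46.9 CPM in INS-MOCK, a larger difference than that of the class sum.

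Hars2, the mitochondrial histidyl enzyme, rose most of the class. It had 81.8, 94.2 and 98.2 CPM in INS-SMA libraries, against 46.9, 47.5 and 46.4 CPM in INS-MOCK libraries. The INS-MOCK libraries were almost equal and all INS-SMA libraries were far above them, with a log2 fold change of 0.96 (standard error 0.08 and adjusted p = 0.000211 in edgeR). Vars2 averaged 31.7 ± 2.29 CPM in INS-SMA and 22.5 ± 1.57 CPM in INS-MOCK (SD, n = 3 each), with a log2 fold change of 0.49 (standard error 0.10 and adjusted p = 0.00709 in edgeR). Sars2 averaged 23.4 ± 0.368 CPM in INS-SMA and 17.9 ± 0.799 CPM in INS-MOCK, with a log2 fold change of 0.38 (standard error 0.08 and adjusted p = 0.0102 in edgeR). Wars2, the tryptophanyl enzyme, averaged 21.7 ± 2.18 CPM in INS-SMA and 16.1 ± 1.19 CPM in INS-MOCK, and its log2 fold change was 0.43 (standard error 0.12 and adjusted p = 0.0263 in edgeR). The Wars2 call depended on single libraries, since edgeR's adjusted p was 0.0834, 0.067, 0.0719 and 0.0651 without INS-SMA library 2 or 3 or INS-MOCK library 2 or 3, and it was 0.0926 with the replicate number as a block and 0.0502 with no low-count filter.

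Mars2, the mitochondrial methionyl enzyme (chromosome 9, 64434904 to 64436664, plus strand), fell most among those that passed. It had 2.82, 3.44 and 4.32 CPM in INS-SMA libraries, against 9.75, 8.74 and 9.87 CPM in INS-MOCK libraries, resting on 47, 75 and 111 counts in INS-SMA and 236, 195 and 231 in INS-MOCK. The groups did not overlap, and the log2 fold change was -1.42 (standard error 0.21 and adjusted p = 0.00226 in edgeR). Pars2, the mitochondrial prolyl enzyme (chromosome 5, 126254142 to 126259200, plus strand), had 7.75, 7.02 and 5.83 CPM in INS-SMA libraries, against 14.4, 14 and 13.8 CPM in INS-MOCK libraries. Pars2 was lower in all 3 INS-SMA libraries, with a log2 fold change of -1.03 (standard error 0.15 and adjusted p = 0.00209 in edgeR).

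The 9 mitochondrial enzymes that did not pass were Aars2, Cars2, Ears2, Fars2, Iars2, Lars2, Nars2, Rars2 and Tars2. Aars2 averaged 28.5 ± 3.33 CPM in INS-SMA and 28.8 ± 0.518 CPM in INS-MOCK, and Tars2 45.6 ± 4.17 CPM in INS-SMA and 47.0 ± 2.70 CPM in INS-MOCK (SD, n = 3 each). Cars2 had 2.04, 2.20 and 1.83 CPM in INS-SMA libraries, against 2.19, 2.51 and 2.82 CPM in INS-MOCK libraries, and these ranges overlapped. Lars2 had 8.17, 1.74 and 7.35 CPM in INS-SMA libraries, against 9.58, 10.4 and 12.9 CPM in INS-MOCK libraries. Lars2 did not overlap between groups, but INS-SMA library 2 lay far below its partners. The log2 fold change of Lars2, -0.93, had a standard error of 0.57 (edgeR adjusted p = 0.225).

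Iars2 had 0, 0 and 0.467 CPM in INS-SMA libraries, against 0, 1.75 and 0.641 CPM in INS-MOCK libraries, and the groups overlapped at 0. Rars2 had 22.6, 46.3 and 12.7 CPM in INS-SMA libraries, against 50.3, 18.6 and 45.4 CPM in INS-MOCK libraries. Rars2 was scattered in both groups. In 9 members the highest library of a group was more than 2-fold above the lowest of that group, namely Tars, Tarsl2, Fars2, Iars2, Lars2, Nars2, Rars2, Yars2 and LOC100911132. Of these 9, 7 were tested and 0 passed in edgeR, and 6 were mitochondrial. A mitochondrial enzyme that did not pass is not shown to be unchanged.

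Setting the enzymes for the same amino acid side by side within a library removes the library's size. For 17 such pairs the log2 ratio of the cytosolic to the mitochondrial enzyme was taken on CPM plus 0.5. The mean ratio was higher in INS-SMA for 14 pairs and lower for 3. The groups did not overlap for 8 pairs that were higher and 1 that was lower. Taken singly, 65.3% of all tested genes did not overlap between groups. Eprs and Fars2 each enter more than 1 pair, so the pairs are not all separate. With 3 libraries against 3, an exact two-sided permutation test cannot go below p = 0.1, and those 9 pairs reached this value (0.189 after Benjamini-Hochberg adjustment over the 17 pairs), so no pair can pass 0.05.

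For cysteine, the log2 ratio of Cars to Cars2 was 7.28, 7.27 and 7.39 in INS-SMA libraries, against 4.66, 4.66 and 4.43 in INS-MOCK libraries. The mean difference of 2.73 came with a change in Cars and none called in Cars2. For methionine, the log2 ratio of Mars to Mars2 was 7.40, 7.21 and 6.97 in INS-SMA libraries, against 4.73, 5.26 and 4.99 in INS-MOCK libraries. Both methionine enzymes passed here, in opposite directions, and the mean difference was 2.20. For histidine, the log2 ratio of Hars to Hars2 was 0.15, 0.03 and -0.04 in INS-SMA libraries, against 1.64, 1.59 and 1.66 in INS-MOCK libraries. In INS-SMA the histidine enzymes stood at about equal CPM, and the mean difference of -1.58 was the lowest of the 17.

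For isoleucine, the log2 ratio of Iars to Iars2 was 10.13, 10.14 and 9.19 in INS-SMA libraries, against 8.29, 6.17 and 7.21 in INS-MOCK libraries, a mean difference of 2.59. Iars2 had 0 counts in INS-SMA libraries 1 and 2 and in INS-MOCK library 1. In those libraries the added 0.5 CPM alone stands for Iars2 in the ratio. Iars by itself had a log2 fold change of 1.79. The mean difference was 1.44 for Aars over Aars2, 1.34 for Lars over Lars2, 1.27 for Eprs over Pars2 and 0.31 for Sars over Sars2, each without overlap. The Lars value was 0.71 without INS-SMA library 2, in which Lars2 was lowest. Ratios for arginine (0.96), glutamate (0.48), threonine (0.31), valine (0.18), phenylalanine (0.10 with Farsb and 0.02 with Farsa), asparagine (-0.02) and tryptophan (-0.16) overlapped between groups. Both enzymes of a pair passed in edgeR for 6 pairs. In 3 of these they moved in opposite directions, namely Mars with Mars2, Eprs with Pars2 and Hars with Hars2. In the other 3 both rose, namely Sars with Sars2, Vars with Vars2 and Wars with Wars2.

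**Figure D3:**
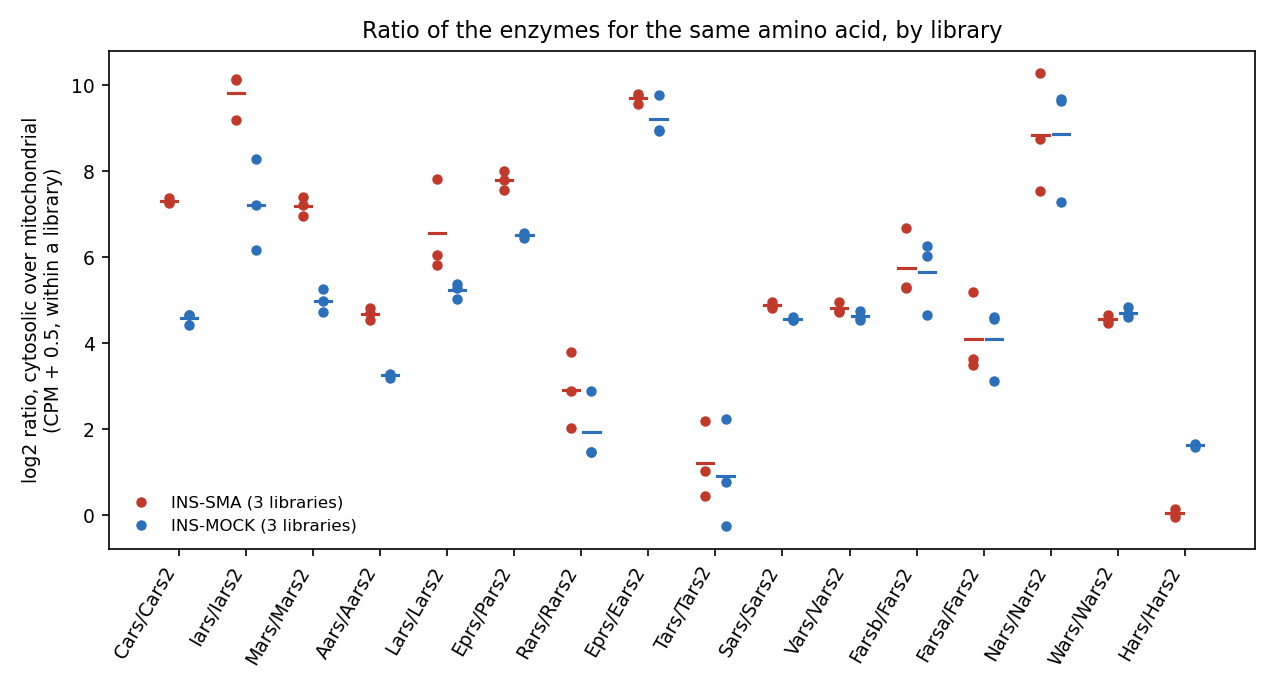
For the pairs reported here the within-library log2 ratio of the cytosolic to the mitochondrial enzyme (vertical axis, CPM plus 0.5) is drawn for the 3 INS-SMA and the 3 INS-MOCK libraries. INS-SMA points lie above INS-MOCK points for Cars over Cars2, Iars over Iars2 and Mars over Mars2, and below them for Hars over Hars2.

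The accessory proteins had 0 that rose and 2 that fell among 4, beside 28.1% of all tested genes that rose and 27.0% that fell. Aarsd1, which resembles the editing part of alanyl-tRNA synthetase (chromosome 10, 89317975 to 89331078, minus strand), had 32.6, 39.2 and 32.7 CPM in INS-SMA libraries, against 73.5, 72.8 and 73.0 CPM in INS-MOCK libraries. Aarsd1 lay lower in every INS-SMA library, while Aars itself rose, and its log2 fold change was -1.07 (standard error 0.09 and adjusted p = 0.000217 in edgeR). The scaffold Aimp2 averaged 55.0 ± 1.51 CPM in INS-SMA and 63.8 ± 2.99 CPM in INS-MOCK (SD, n = 3 each), with a log2 fold change of -0.21 (standard error 0.06 and adjusted p = 0.0218 in edgeR). The Aimp2 call was lost without INS-SMA library 1 or 2 or INS-MOCK library 2 or 3, at edgeR adjusted p-values of 0.0601, 0.066, 0.0557 and 0.0562, and it was 0.0515 with the replicate block and 0.128 without normalisation factors. The scaffold Aimp1 had a log2 fold change of -0.12 and Prorsd1, which resembles the editing domain of prolyl-tRNA synthetase, 0.14, and neither passed.

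The copies of Iars and Mars2 differed between groups in the same direction as the genes they resemble, and reads could be divided between gene and copy. LOC103690033, described as like cytoplasmic isoleucyl-tRNA ligase (chromosome 17, 14541949 to 14557792, minus strand), had 76.2, 68.4 and 70.8 CPM in INS-SMA libraries, against 20.7, 25.5 and 27.6 CPM in INS-MOCK libraries. Its log2 fold change of 1.54 (standard error 0.12 and adjusted p = 0.000192 in edgeR) stands beside 1.79 for Iars. LOC100911305, described as like mitochondrial methionyl-tRNA ligase (chromosome 9, 61823531 to 61825291, plus strand), had 48, 71 and 104 counts in INS-SMA libraries, against 225, 188 and 223 in INS-MOCK libraries. These counts were nearly those of Mars2 in each library, the log2 fold change was likewise -1.42 (standard error 0.19 and adjusted p = 0.00157 in edgeR), and the gene number of this copy carries the symbol Mars2 in RefSeq. How the reads of Mars2 and of Iars were divided between gene and copy is not given in the sources used here, so gene and copy are not independent measurements. LOC100911132, like glutaminyl-tRNA ligase, had 2, 0 and 2 counts in INS-SMA libraries, against 0, 0 and 2 in INS-MOCK libraries.

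Each gene value is a sum over transcript rows, and the rows of a gene did not always move together. The 45 genes took 90 rows, of which 64 carry the identifier of an annotated transcript and 26 a gene identifier with a suffix, called assembled rows here. The 24 members with 1 row include Mars, Yars, Gars and Hars, and the other 21 have several. Tested by themselves in a fit of 23402 rows, a comparison added after the data were seen, 82 rows of synthetase genes were tested, 16 rose and 6 fell, where 15.6% of all rows tested rose and 14.6% fell.

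Among the rows of Cars, an assembled row had 974, 7541 and 1975 counts in INS-SMA libraries, against 7, 4 and 3 in INS-MOCK libraries (log2 fold change 9.59 with a standard error of 1.12, adjusted p = 0.00282 in edgeR). That row held 14.9%, 82.9% and 19.7% of the Cars counts in INS-SMA libraries and at most 0.429% in INS-MOCK libraries. The annotated row of Cars had 3627, 124 and 4498 counts in INS-SMA libraries, against 1414, 1018 and 1298 in INS-MOCK libraries, and did not pass by itself (edgeR adjusted p = 0.469). INS-SMA library 2 was high in the assembled row and low in the annotated row, while the sum over rows was alike in all 3 INS-SMA libraries.

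For Iars, an assembled row had 2838, 2635 and 3508 counts in INS-SMA libraries, against 11, 26 and 89 in INS-MOCK libraries (log2 fold change 6.27 with a standard error of 0.92, adjusted p = 0.00589 in edgeR). For Lars, an assembled row had 1220, 2036 and 2688 counts in INS-SMA libraries, against 10, 4 and 9 in INS-MOCK libraries (log2 fold change 8.07 with a standard error of 0.43, adjusted p = 0.000244 in edgeR). The annotated row of Lars, with 82.7% of the counts of Lars, had 5441, 8049 and 8740 counts in INS-SMA libraries, against 10122, 9465 and 9743 in INS-MOCK libraries, a log2 fold change of -0.30 (standard error 0.06 and adjusted p = 0.0133 in edgeR). The rise of Lars as a gene thus came from its assembled rows, and the annotated row was lower in INS-SMA. For Hars2, the annotated row rose by 0.65 on the log2 scale (standard error 0.17 and adjusted p = 0.0386 in edgeR) and an assembled row by 2.26 (standard error 0.44 and adjusted p = 0.0154 in edgeR).

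Aars had rows that changed places between libraries of the same group. An assembled row of Aars had 5768, 10033 and 7643 counts in INS-SMA libraries, against 3059, 3383 and 0 in INS-MOCK libraries, and no row of Aars passed by itself, while the sum varied little within a group. The genes with 1 row carry no such division. In the row fit Mars rose by 0.85 and Yars by 0.84, and Hars had -0.66 (edgeR adjusted p-values of 0.00378, 0.000231 and 0.00111). Taking only the most abundant row of each gene reversed the direction of Lars, to a log2 fold change of -0.22 (edgeR adjusted p = 0.0195), and that of Sars2, to -0.68 (edgeR adjusted p = 0.36). Among the calls it ended were those of Cars (1.38, edgeR adjusted p = 0.386), Aars (2.05, edgeR adjusted p = 0.425), Iars (1.80, edgeR adjusted p = 0.0528), Vars, Pars2, Vars2 and Aimp2.

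**Figure D4:**
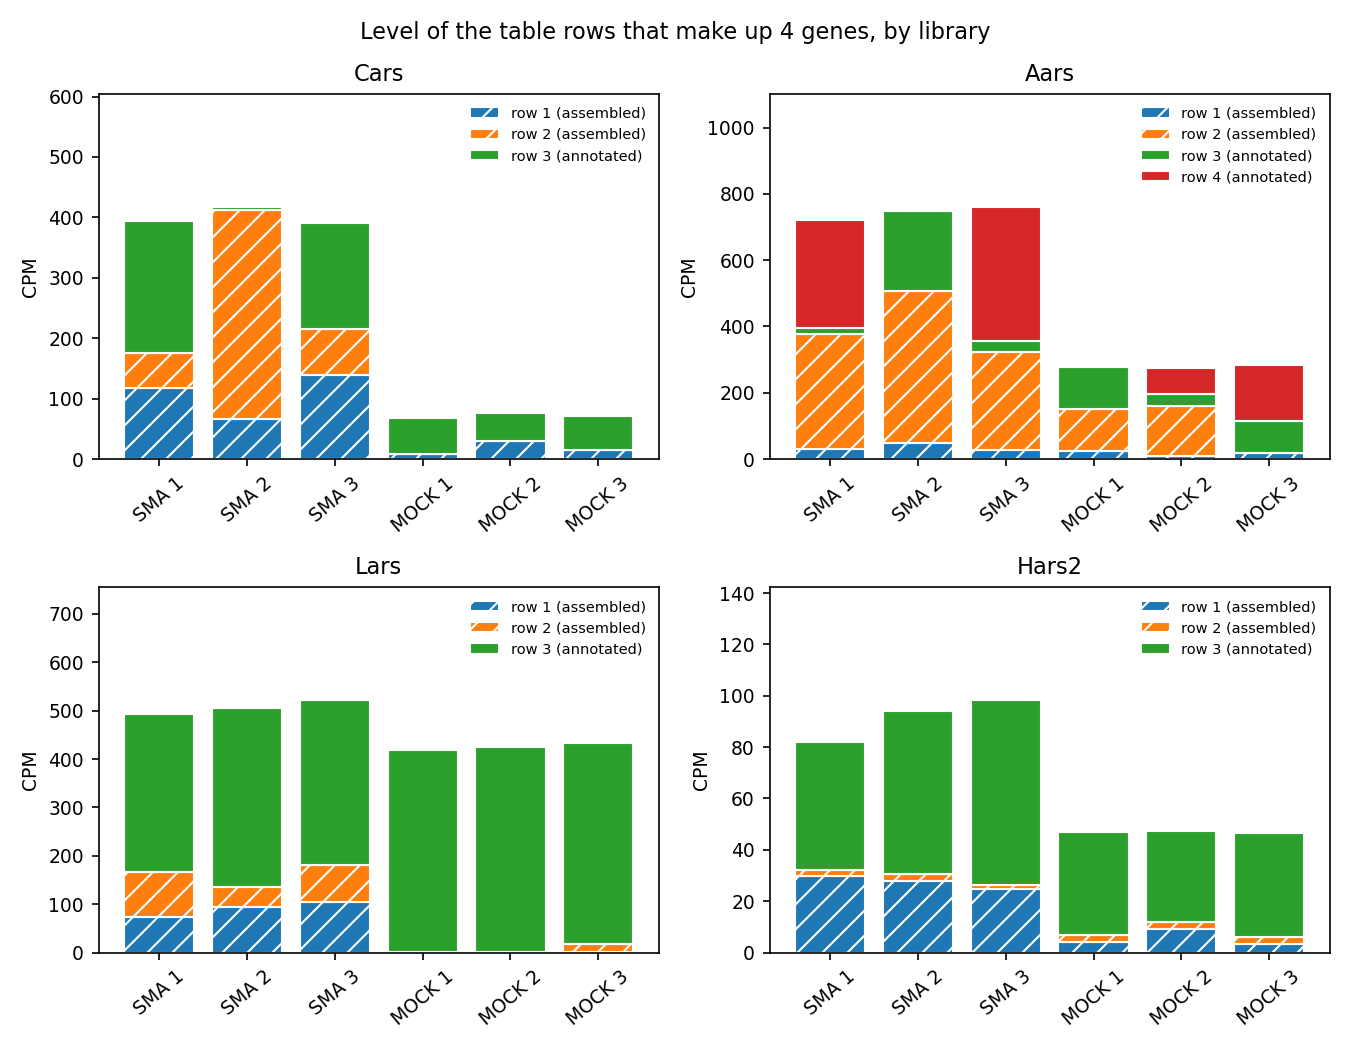
The CPM of each table row of Cars, Aars, Lars and Hars2 are stacked by library, with the 3 INS-SMA libraries left of the 3 INS-MOCK libraries in each panel. The height of a stack is the gene's level, and the make-up of a stack differs between libraries of the same group, as in INS-SMA library 2 of Cars, where 1 assembled row holds 82.9%.

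Genes that act around the synthetases were read in the same fit, from lists chosen with earlier results of these data known. The lists are described by counts and medians, beside the 28.1% of all tested genes that rose, the 27.0% that fell and the median log2 fold change of 0.03. Of 25 genes of the amino acid response that ATF4 governs, 22 were tested, 17 rose and 1 fell, with a median of 1.36. The 4 that did not pass were Psat1, Psph, Aldh1l2 and Cth, with log2 fold changes of -0.02, -0.05, -0.18 and -1.14. Trib3, a pseudokinase that acts as a feedback inhibitor of the response, averaged 1147 ± 83.3 CPM in INS-SMA and 42.6 ± 0.857 CPM in INS-MOCK (SD, n = 3 each), with a log2 fold change of 4.75 (standard error 0.07 and adjusted p = 2.23e-06 in edgeR). Slc7a11, the cystine transporter subunit, averaged 245 ± 4.06 CPM in INS-SMA and 27.5 ± 1.92 CPM in INS-MOCK, with a log2 fold change of 3.16 (standard error 0.06 and adjusted p = 4.06e-06 in edgeR). Sesn2, a leucine sensor, rose by 1.48 on the log2 scale. Chosen after their values were seen, Atf4 itself averaged 489.6 ± 21.4 CPM in INS-SMA and 214 ± 8.05 CPM in INS-MOCK, with a log2 fold change of 1.20 (standard error 0.05 and adjusted p = 1.87e-05 in edgeR), and Atf5 was the gene that fell, at -0.64 (edgeR adjusted p = 0.00505). The asparagine synthetase gene Asns, which makes the amino acid that Nars charges, rose by 0.43 on the log2 scale, beside 0.52 for Nars.

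Of 15 genes that control eIF2, 8 rose and 2 fell, with a median of 0.36. Ppp1r15a, the inducible subunit that directs removal of phosphate from eIF2, averaged 328 ± 34.5 CPM in INS-SMA and 34.0 ± 1.82 CPM in INS-MOCK, with a log2 fold change of 3.27 (standard error 0.10 and adjusted p = 8.71e-06 in edgeR). Its constitutive relative Ppp1r15b rose by 0.88 on the log2 scale and Eif2s2, the beta subunit of eIF2, by 0.69. Eif2ak4, the kinase GCN2 that senses uncharged tRNA, chosen here after its value was seen, averaged 102 ± 5.53 CPM in INS-SMA and 84.2 ± 2.52 CPM in INS-MOCK, with a log2 fold change of 0.28 (standard error 0.05 and adjusted p = 0.00658 in edgeR). The other listed eIF2 kinases did not pass. Eif2ak2 had a larger log2 fold change of 1.34 (standard error 0.50 and adjusted p = 0.0686 in edgeR), without overlap between groups. Eif2ak3 had 0.10, and Eif2ak1 had -0.13 with a standard error of 1.56.

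The multi-tRNA synthetase complex, taken with its scaffolds, had 5 of 11 that rose and 1 that fell, with a median of -0.02. The 5 were Iars, Mars, Rars, Eprs and Lars, and the 1 was Aimp2. Eef1e1, the scaffold that the rule on descriptions did not take, averaged 99.0 ± 5.29 CPM in INS-SMA and 112 ± 7.45 CPM in INS-MOCK and did not pass (edgeR adjusted p = 0.0652).

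Genes that correct, release or further modify charged tRNA had 2 of 10 that rose and 3 that fell, with a median of -0.30. Dtd1, which removes D-amino acids from tRNA, averaged 58.3 ± 2.18 CPM in INS-SMA and 111 ± 9.12 CPM in INS-MOCK, with a log2 fold change of -0.93 (standard error 0.07 and adjusted p = 0.000179 in edgeR). Ptrhd1, a peptidyl-tRNA hydrolase domain protein, fell by 1.43 on the log2 scale, and Eefsec, the elongation factor for selenocysteine tRNA, rose by 0.90. Genes that transcribe and mature tRNA had 5 of 21 that rose and 6 that fell, with a median of 0.06. The RNA polymerase III subunit Polr3k fell by 1.40, the splicing endonuclease subunit Tsen34 fell by 0.99 and the RNase P subunit Rpp40 rose by 1.52 on that scale.

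Genes of mitochondrial tRNA and translation had 3 of 22 that rose, 2 that fell and 17 that did not pass, with a median of 0.14. Qrsl1 and Gatc, subunits of the amidotransferase that makes glutaminyl-tRNA in mitochondria in place of a glutaminyl enzyme, moved apart, with log2 fold changes of 0.41 (edgeR adjusted p = 0.0126) and -0.87 (edgeR adjusted p = 0.00258). Hsd17b10, a subunit of mitochondrial RNase P, fell by 0.59 on the log2 scale. Of 6 genes for elongation factors and their subunits, 2 rose and 2 fell, with a median of 0.09. Eef1a1 and Eef1a2, whose products receive charged tRNA, did not pass. Eef1a1 had only 1.73 to 3.30 CPM over all libraries. Eef2 rose by 0.45, and Eef1g and Eef1b2 fell by 0.59 and 0.93 on the log2 scale.

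**Figure D5:**
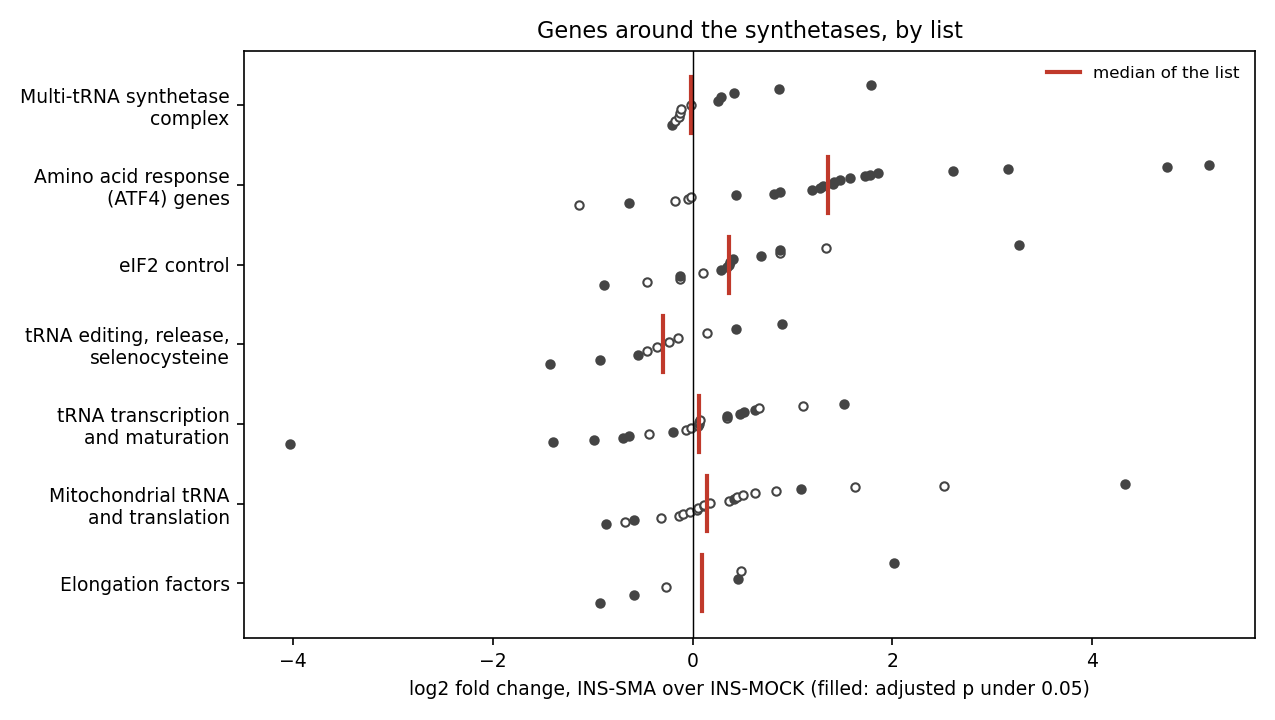
Each point is a tested gene of one of the lists around the synthetases, placed by its log2 fold change of INS-SMA over INS-MOCK (horizontal axis) and filled where the edgeR adjusted p is under 0.05. The amino acid response genes lie mostly to the right, with Trib3 at 4.75, and the other lists lie on both sides of 0.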

How the data were processed

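RNA was sequenced on the NovaSeq platform from 3 INS-SMA and 3 INS-MOCK libraries. The deposited values are raw counts, one whole number per transcript row and library. Per the submitters' processing notes, the authors used HISAT2, HISAT and DESeq2 with builds hg19 and rn6, whose roles are not stated. Which program made the counts, whether it used strand, and which annotation it read is not given in the sources used here, so reads of overlapping genes on opposite strands, such as neighbours of a synthetase gene, may not be separated.

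Of 101905 rows, 35604 name a gene. The other 66301 rows, with 32.7% to 36.7% of the counts of a library, entered neither library sizes nor tests. Rows were summed per gene to 21553 genes, 6254 of them from several rows. edgeR 4.0.16 in R 4.3.3 kept 13363 genes with filterByExpr, scaled libraries with TMM factors and fitted glmQLFit and glmQLFTest with a term for group alone. Benjamini-Hochberg adjustment ran over all tested genes, with a threshold of 0.05. The standard error is the size of the log2 fold change divided by the square root of F. CPM are on TMM-scaled library sizes. The script was tested on simulated data. Replicate libraries were not duplicates of each other, with chi-square values over their degrees of freedom of 46.8 to 61.0. Other fits used DESeq2 1.42.0, upper-quartile factors, no low-count filter, only the most abundant row of each gene, unnamed rows in library sizes, the replicate number as a block, and each library left out. Fits without normalisation factors and on single rows were added after the data were seen.

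The members and lists were chosen with earlier results of these data known. Values in every library are given for the 6 largest rises and 6 largest falls among members past the threshold at a mean of at least 5 CPM in a group, the 4 most abundant members, those that passed against the majority of their class, and both enzymes of the 4 amino acids whose ratio moved most. From each list the 3 genes with the smallest adjusted p past the threshold were named. Any other gene was chosen after its values were seen. Promoters come from RefSeq (GRCr8), matched by gene number, and gene positions from the deposited table, whose build is not stated (rn6 is the rat build the notes name). Coordinates of one were not used with the other. A mitochondrial enzyme that these rules take enters the counts and medians and is not reported here by itself.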

Additional observations from a re-analysis of the deposited data

How the results depend on the processing

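With only the most abundant row of each gene, 41 members were tested, 11 rose instead of 18, 8 cytosolic enzymes rose instead of 13 with a median log2 fold change of 0.47 instead of 0.28, and 2 mitochondrial enzymes rose and 1 fell instead of 4 and 3. Lars reversed to -0.22 and Sars2 to -0.68 under it, 8 other calls were lost, and the difference of the Cars to Cars2 log2 ratio was 0.46 instead of 2.73. Reading the suffix strictly, which moves Aimp2 and Tarsl2 to the mitochondrial class and the accessory proteins and copies to either class, gave 4 cytosolic members that fell instead of 2. With no low-count filter the mitochondrial median was -0.05 instead of -0.17, while the median of all genes was 0.27 instead of 0.03. Without normalisation factors the median of all genes was 0.13, and 1 member call was lost. DESeq2, the upper-quartile factors and unnamed rows in the library sizes changed no member call. The cause of these changes was not tested.

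With each library left out in turn, 13 cytosolic enzymes rose and 2 fell every time, and the cytosolic median was 0.26 to 0.37. The members that rose numbered 17 to 18 and those that fell 6 to 8. The mitochondrial enzymes that rose numbered 3 to 4, those that fell 2 to 3, and their median was -0.25 to -0.08. The log2 ratio differences stayed within 2.65 to 2.77 for Cars over Cars2, 2.06 to 2.33 for Mars over Mars2 and -1.63 to -1.54 for Hars over Hars2. They ran over 2.07 to 3.13 for Iars over Iars2, 0.71 to 1.71 for Lars over Lars2, 0.52 to 1.44 for Rars over Rars2 and 0.34 to 0.75 for Eprs over Ears2. They crossed 0 for Tars over Tars2 (-0.27 to 0.97), Nars over Nars2 (-0.81 to 0.64), Farsb over Fars2 (-0.39 to 0.42) and Farsa over Fars2 (-0.53 to 0.33).

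The replicate number shared between groups showed no sign of pairing the libraries. Deviations of same-numbered libraries had correlations of -0.028, -0.013 and -0.026, and those of differently numbered libraries -0.004 to 0.031. With so few libraries these values cannot show that the libraries are unpaired. With the number as a replicate block 17 members rose and 6 fell, 13 cytosolic enzymes rose and 2 fell with a median of 0.28, and 3 mitochondrial enzymes rose and 2 fell with a median of -0.15. The calls lost included those of Aimp2 and Wars2. Of 26 members that passed, 15 kept their call under all 13 alternatives, and of 17 that did not pass, 0 passed under any of them. At this depth 3 counts are 0.117 to 0.180 CPM, and Iars2, Nars2 and Yars2 lay at or near 0 in some libraries.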
